A study of Homo sapiens with 15 samples.

Results

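The ABC drug efflux transporters measured here are 7 genes, ABCB1, ABCG2, ABCC1, ABCC2, ABCC3, ABCC4 and ABCC5, out of 19775 genes with a probe set of their own. Every probe set that the platform annotation gives exactly 1 of these symbols was taken, which made 18 of the 54613 probe sets tested. ABCC3 has 5 of them, ABCC4 has 4, ABCC5 has 3, ABCB1 and ABCC1 have 2 each, and ABCG2 and ABCC2 have 1 each. The brightest probe set of a gene over all arrays stands for the gene and is called its main probe set. The RNA came from A549, a human lung carcinoma line of epithelial origin, and 15 samples, 3 for each of 5 conditions, were each hybridised to an Affymetrix HG-U133 Plus 2.0 array. After 24 h of attachment the cells received the vehicle DMSO for 24 h, geldanamycin at 40 nM for 24 h, DMSO for 48 h, geldanamycin at 10 nM for 48 h, or geldanamycin at 40 nM for 48 h. The labels give 40 nM as the IC50 and 10 nM as the IC20, and all groups, vehicle included, were in a final DMSO concentration of 0.4%. Everything below comes from this 1 cell line, and the labels do not say whether replicates were separate cultures, so the p-values rest on a spread among arrays that could be purely technical.

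ABC transporters use ATP to move substrates across membranes, and these members are best known for pumping drugs, conjugates and signalling molecules out of cells. ABCB1 (P-glycoprotein) exports unmodified, mostly hydrophobic drugs, and ABCG2 (BCRP) exports drugs among other substrates. ABCC1, ABCC2 and ABCC3 (MRP1, MRP2 and MRP3) export organic anions, among them glutathione and glucuronide conjugates, and ABCC4 and ABCC5 (MRP4 and MRP5) also export cyclic nucleotides. Geldanamycin is a benzoquinone ansamycin that inhibits the chaperone HSP90 by occupying its ATP site. A549 cells carry an inactivated KEAP1 gene, which leaves NRF2, an activator of several ABCC genes, on in untreated cells.

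The values are log2 RMA values. The mean over all probe sets was 5.13 to 5.14 on the 6 arrays of 24 h and 5.52 on the 9 arrays of 48 h, so a level at 48 h and a level at 24 h may be on different scales, and treatments are compared within a time. The keratins KRT8, KRT18 and KRT7 had mean levels of 12.65, 13.72 and 13.03, and the defining marker of leukocytes PTPRC had 3.28 and that of hepatocytes ALB 2.79. Not every marker read that way. Of the 10 epithelial genes EPCAM, CLDN4 and CLDN7 had only 4.89, 4.93 and 4.36, and KRT19 ran from 4.65 to 9.004 over the arrays, while CD14 of the leukocyte list had 5.07 and TTR and CYP3A4 of the hepatocyte list 5.64 and 6.18. These are different probe sets, whose levels cannot be ranked against each other. The mean log2 level over 10 epithelial genes was 7.87 to 7.93 in vehicle and 8.58 to 8.67 at 40 nM at 24 h, and 8.48 to 8.57 in vehicle, 8.79 to 8.80 at 10 nM and 8.96 to 9.03 at 40 nM at 48 h. Over 10 hepatocyte and gut genes, from tissues rich in these pumps, it was 3.81 to 4.16 in vehicle and 3.93 to 4.13 at 40 nM at 24 h, and 4.53 to 4.66 in vehicle, 4.42 to 4.61 at 10 nM and 4.53 to 4.64 at 40 nM at 48 h. Over 10 fibroblast genes at 24 h it was 4.128 to 4.205 in vehicle and 4.208 to 4.328 at 40 nM. It was thus slightly higher on every treated array at that time. At 48 h it was 5.07 to 5.09 in vehicle, 4.46 to 4.63 at 10 nM and 4.92 to 5.003 at 40 nM, lower on every treated array. Over 8 leukocyte genes at 24 h it was 3.48 to 3.69 in vehicle and 3.52 to 3.69 at 40 nM, which overlap. At 48 h it was 4.08 to 4.19 in vehicle, 4.21 to 4.24 at 10 nM and 4.30 to 4.45 at 40 nM, higher on every treated array. The part of these shifts in the results was not tested. In RNA from bulk cultures, fewer cells with a transcript and less of it per cell cannot be told apart.

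At 24 h, 40 nM geldanamycin raised 6 of the 7 transporters. ABCC2, the pump of glucuronide and glutathione conjugates best known from the bile canaliculus, rose most, 2.62-fold. ABCC1, ABCG2, ABCC4 and ABCC5 rose between 1.62-fold and 1.83-fold and ABCC3 rose 1.39-fold, while ABCB1 stayed at the low end of the array's range. None of the 7 fell. Among all genes, 13.4% passed as higher and 14.9% as lower in this comparison. The median log2 difference of the 7 main probe sets was 0.731, against -0.01 over all genes. The members were chosen with earlier results of these data known. Their counts and medians, here and below, therefore describe the set and do not test it against all genes.

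**Figure D1:**
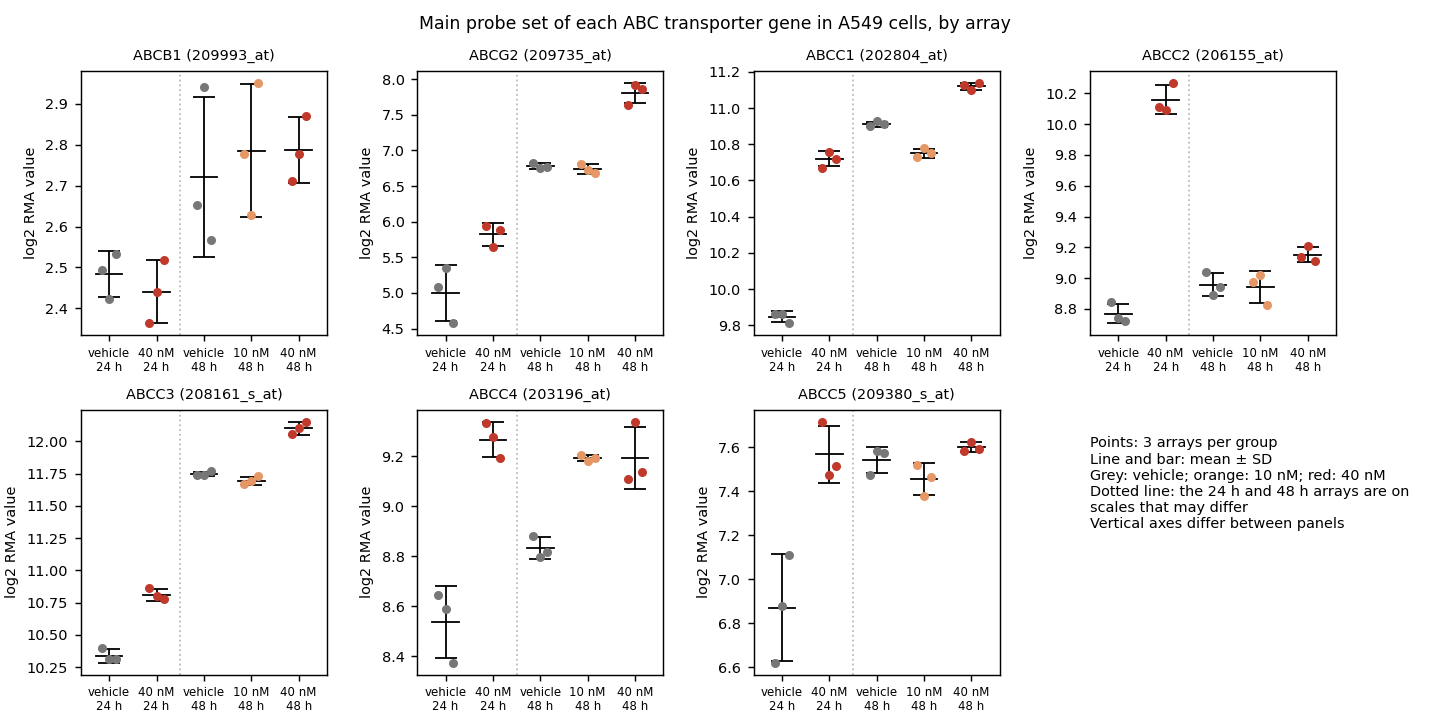
The log2 RMA value of each gene's main probe set (vertical axis, a different range in each panel) on every array of the 5 groups (horizontal axis), with points for the 3 arrays and a line and bar for the mean ± SD. ABCC2 stands at 10.09 to 10.27 on the 40 nM arrays of 24 h and at 8.72 to 9.21 on all others, whereas ABCG2 is highest on the 40 nM arrays of 48 h and ABCC4 is higher than vehicle at 10 nM and at 40 nM alike.

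The ABCG2 probe set read 5.08, 5.35 and 4.58 on the vehicle arrays of 24 h and 5.94, 5.64 and 5.89 on the 40 nM arrays. All treated arrays lay above all vehicle arrays, and the vehicle arrays were spread more widely than those of any other main probe set at this time. The log2 difference was 0.82 ± 0.15 (standard error of the limma fit, 3 arrays per group), with an adjusted p of 0.00071. Its size rests on the spread of the vehicle arrays, with 0.996 without the second of them, 0.61 without the third and 0.52 with array weights, and it passed in all 27 alternative settings. ABCG2 is the only probe set of its gene here, so no second probe set bears on this value.

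ABCC1, the broad exporter of glutathione conjugates and of anthracyclines and vinca alkaloids, read 9.86, 9.86 and 9.81 in vehicle and 10.67, 10.76 and 10.72 at 40 nM. The groups were far apart compared with their spread, with a log2 difference of 0.87 ± 0.058 (adjusted p = 4.2e-08). Its other probe set, 202805_s_at, moved by 0.77 ± 0.079 (adjusted p = 3.2e-06). Both probe sets of ABCC1 therefore rose at 24 h.

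ABCC2 read 8.84, 8.74 and 8.72 in vehicle and 10.11, 10.09 and 10.27 at 40 nM. Every treated array lay far above every vehicle array, and the log2 difference was 1.39 ± 0.077 (adjusted p = 7.1e-09). This difference lay between 1.33 and 1.42 under all 27 alternative settings tried.

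ABCC3, a basolateral exporter of glucuronides, read 10.40, 10.31 and 10.31 in vehicle and 10.86, 10.80 and 10.78 at 40 nM, again without overlap. The log2 difference of this main probe set was 0.47 ± 0.061 (adjusted p = 3.5e-05). Of the other ABCC3 probe sets, 209641_s_at and 230682_x_at rose by 0.51 ± 0.061 and 0.56 ± 0.065, and 242553_at differed by 0.22 ± 0.080 (adjusted p = 0.060). With _x_at and _s_at sets left out, where 242553_at alone is read, ABCC3 did not pass (adjusted p = 0.0872). The fifth, 239217_x_at, went the other way, from 6.83, 6.76 and 6.67 in vehicle to 6.31, 6.44 and 6.51 at 40 nM, a log2 difference of -0.33 ± 0.083 (adjusted p = 0.0085). The suffix _x_at marks sets in which the maker found probes that also match other sequences. The positions of the probes were not used here, and what this set binds was not tested.

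ABCC4, which exports cyclic nucleotides and prostaglandins, read 8.65, 8.59 and 8.37 in vehicle and 9.33, 9.28 and 9.19 at 40 nM. The log2 difference was 0.73 ± 0.083 (adjusted p = 9.8e-06). The other 3 ABCC4 probe sets were dimmer and differed in the same direction by 0.28 to 0.40, with adjusted p between 0.0502 and 0.106, so none of them passed.

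ABCC5, an exporter of cyclic GMP and of nucleotide analogues, read 6.62, 6.88 and 7.11 in vehicle and 7.72, 7.47 and 7.52 at 40 nM. The vehicle arrays were spread widely and still lay below every treated array. The log2 difference was 0.70 ± 0.10 (adjusted p = 0.00013), and 226363_at rose as well, by 0.50 ± 0.075 (adjusted p = 0.00014). The third ABCC5 probe set, 1558460_at, differed by 0.02 with a 95% interval from -0.25 to 0.29.

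ABCB1, the classical multidrug resistance pump, read 2.50, 2.42 and 2.53 in vehicle and 2.37, 2.44 and 2.52 at 40 nM for its main probe set. Over all 15 arrays its 2 probe sets stayed between 2.36 and 2.95, where at most 18.3% of the probe sets of an array read as low or lower. The 24 h difference was -0.04 with a 95% interval from -0.26 to 0.17. At such values a probe set carries little signal, so a change of a rare transcript would not be detectable here. A probe set shared by ABCB4 and ABCB1, which is no member, read 2.92 to 3.59 over all groups.

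Over all 18 probe sets, 10 passed as higher and 1 as lower at 24 h, against 10.3% and 10.7% of all probe sets. The 1 that was lower is the ABCC3 set 239217_x_at.

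**Figure D2:**
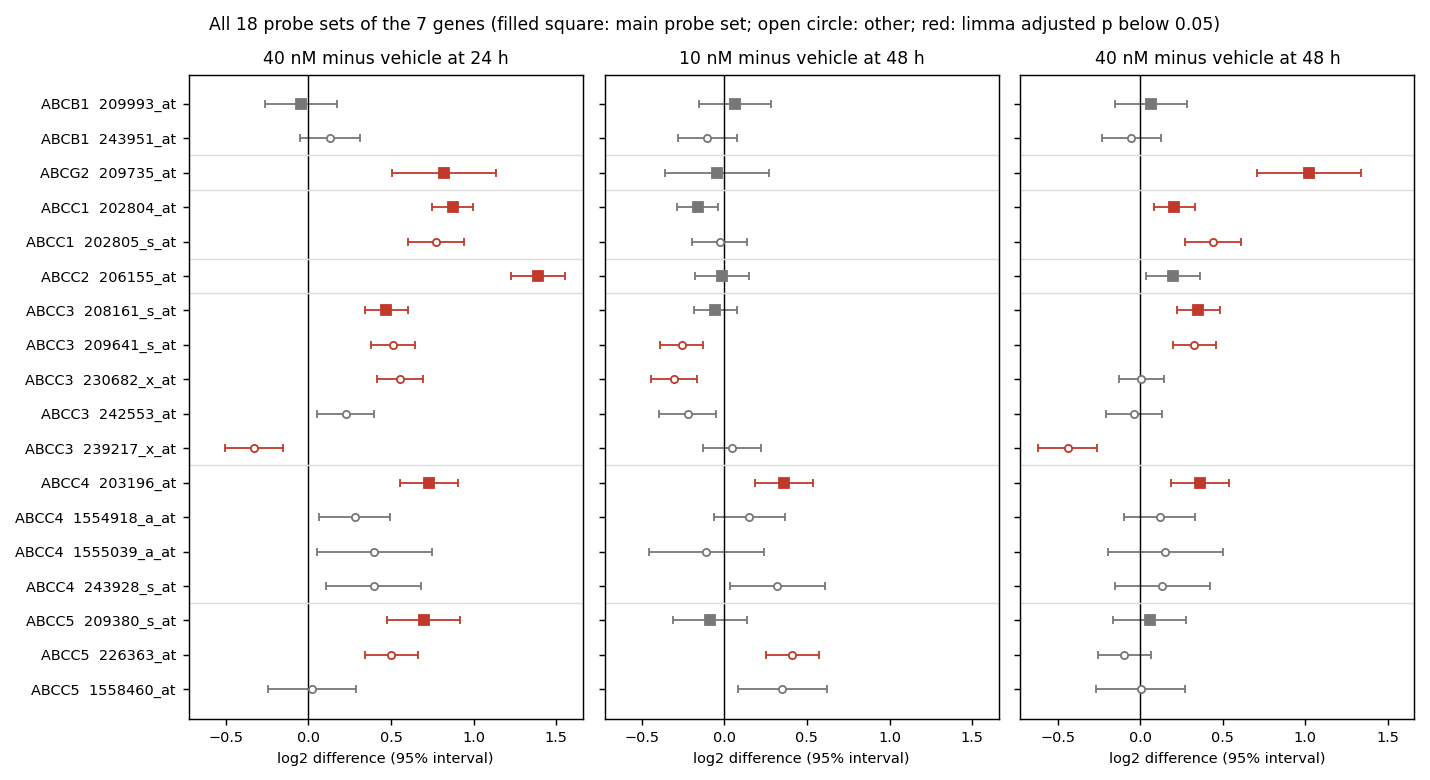
Log2 differences (horizontal axis) with 95% intervals for the 18 probe sets (rows) in the 3 comparisons with vehicle, with filled squares for main probe sets, open circles for others and red for an adjusted p below 0.05. At 24 h the intervals of 6 of the 7 squares lie wholly above 0, at 10 nM only the square of ABCC4 does, and the ABCC3 set 239217_x_at lies below 0 at 40 nM at both times.

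Because several members rose together, the 250 bases before each RefSeq transcript start (GRCh38.p14) were searched on both strands for the core of the antioxidant response element, TGACNNNGC, to which NRF2 binds, for the TATA box, TATAAA, and for 5 other short motifs. These were the xenobiotic response element core GCGTG, the heat shock element pair GAANNTTC, the GC box GGGCGG, the E-box CACGTG and the CCAAT box, which occur in 32.2%, 5.78%, 42.6%, 6.34% and 32.0% of all promoters of that length. The table held 1 start each for ABCC2, ABCC4 and ABCC5, 2 for ABCB1 and 5 for ABCG2. It held none for ABCC1 and ABCC3, which also rose at 24 h and were not searched. The 3 sequences of genes with a single start are shown because they include the member that rose most and the member that also rose at 10 nM, and they differ in composition. Capitals mark TATAAA and matches to the antioxidant core, and letters run 5′ to 3′ along the gene.

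ABCC2, chr10:99782390-99782639, plus strand: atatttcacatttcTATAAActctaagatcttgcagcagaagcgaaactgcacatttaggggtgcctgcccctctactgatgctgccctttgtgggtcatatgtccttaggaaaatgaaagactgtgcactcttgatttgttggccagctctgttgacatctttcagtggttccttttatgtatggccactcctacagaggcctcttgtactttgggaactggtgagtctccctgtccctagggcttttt
ABCC4, chr13:95301452-95301701, minus strand: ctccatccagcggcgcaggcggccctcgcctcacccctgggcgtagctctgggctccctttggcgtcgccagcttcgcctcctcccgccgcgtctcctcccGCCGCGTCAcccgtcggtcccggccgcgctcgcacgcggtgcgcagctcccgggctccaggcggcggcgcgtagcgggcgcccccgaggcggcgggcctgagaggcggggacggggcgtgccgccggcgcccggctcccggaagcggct
ABCC5, chr3:184017885-184018134, minus strand: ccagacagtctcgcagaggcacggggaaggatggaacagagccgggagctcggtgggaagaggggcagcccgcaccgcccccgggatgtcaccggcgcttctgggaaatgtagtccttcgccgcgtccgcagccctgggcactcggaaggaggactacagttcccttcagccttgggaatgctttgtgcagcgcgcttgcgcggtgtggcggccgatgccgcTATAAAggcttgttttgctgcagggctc

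The ABCC4 stretch held 1 antioxidant core, on the strand opposite to the gene, 149 to 141 bases before the start, and this motif occurs in 10.9% of all 35116 promoters of that length. The ABCC2 and ABCC5 stretches did not hold those letters in this window. ABCC2 was poor in G and C, at 45.6% with 1 CpG, whereas ABCC4 reached 80.4% with 42 CpG and ABCC5 64.8% with 21 CpG. ABCC5 held TATAAA 28 to 23 bases before its start and ABCC2 held it 236 to 231 bases before, and 10.7% of all promoters hold it. The antioxidant letters were in none of the 5 ABCG2 and 2 ABCB1 windows either. The xenobiotic core was found in ABCC4, ABCG2 and ABCB1 windows, the GC box in ABCG2 and ABCC5 windows, the E-box in ABCG2 windows and CCAAT in ABCB1 windows. The heat shock pair was found at 1 start, of ABCB1, 175 to 168 bases before it. A match describes letters and shows no binding.

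At 48 h, 40 nM geldanamycin left 4 of the 7 transporters higher than vehicle, namely ABCG2, ABCC1, ABCC3 and ABCC4, against 9.01% of all genes. ABCG2 rose 2.03-fold and was the member with the largest difference, and ABCC3, ABCC4 and ABCC1 rose 1.28-fold, 1.28-fold and 1.15-fold. None of the 7 fell, against 8.59% of all genes. The median log2 difference of the 7 main probe sets was 0.207, against -0.02 over all genes.

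ABCG2 read 6.82, 6.75 and 6.77 in vehicle and 7.64, 7.92 and 7.86 at 40 nM. The groups were well separated, and the log2 difference was 1.02 ± 0.15 (adjusted p = 0.00023). Its vehicle arrays were much tighter at 48 h than at 24 h, with an SD of 0.037 against 0.392.

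ABCC3 read 11.74, 11.74 and 11.77 in vehicle and 12.06, 12.10 and 12.15 at 40 nM, a log2 difference of 0.35 ± 0.061 (adjusted p = 0.0011). Its probe set 209641_s_at rose by 0.33 ± 0.061 (adjusted p = 0.0019). The remaining 3 sets did not follow. The log2 difference was 0.01 for 230682_x_at and -0.04 for 242553_at, with adjusted p of 0.978 and 0.876, and 239217_x_at fell by 0.44 ± 0.083 on the log2 scale (adjusted p = 0.0020). As a result the mean over the 5 ABCC3 probe sets gave 0.04 (adjusted p = 0.689), and with _x_at and _s_at sets left out, where 242553_at alone is read, it gave -0.04 (adjusted p = 0.907). The rise of ABCC3 at 48 h is thus a statement about 2 of its 5 probe sets.

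**Figure D3:**
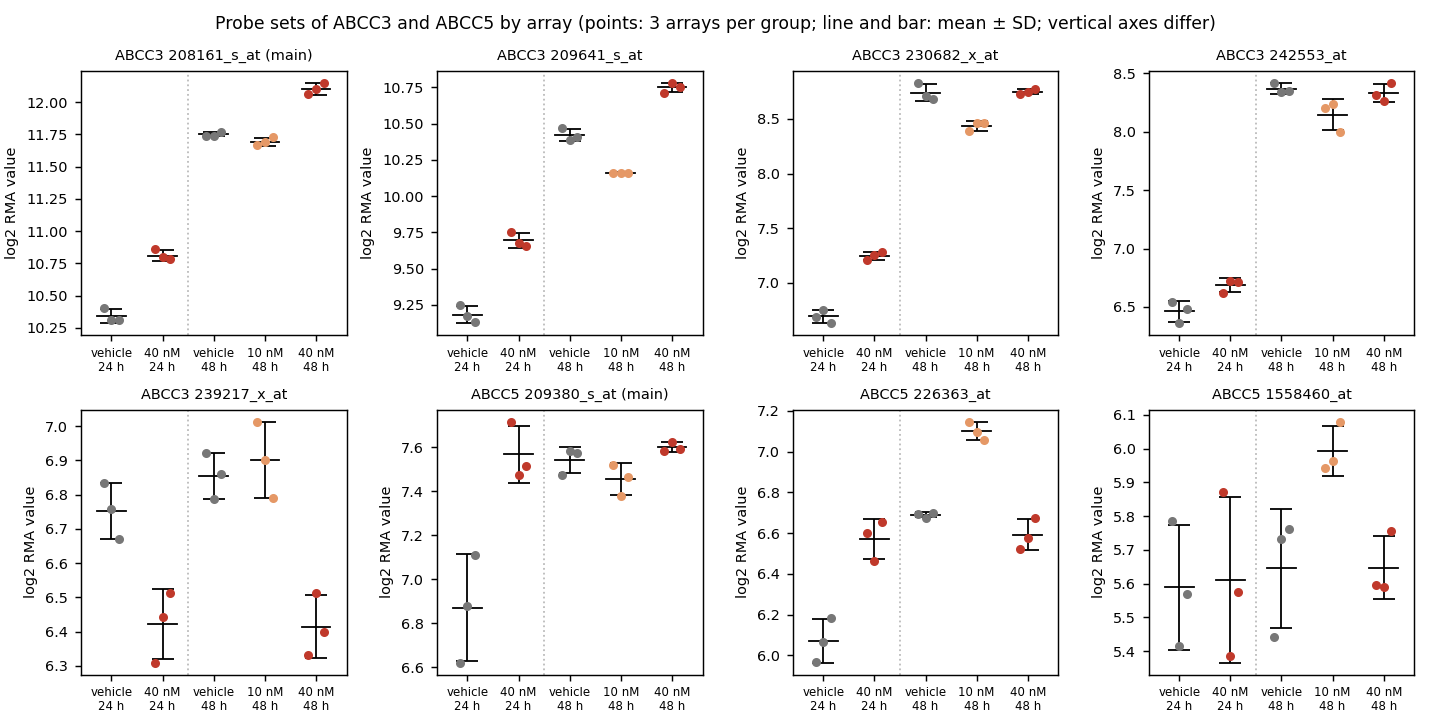
Log2 RMA values (vertical axes, a different range in each panel) on every array (points) of the 5 groups (horizontal axis) for the 5 probe sets of ABCC3 and the 3 of ABCC5, with the mean ± SD. The ABCC3 set 239217_x_at is lowest on the 40 nM arrays at both times, opposite to the main set, and the ABCC5 set 226363_at is highest at 10 nM, at 7.06 to 7.15.

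ABCC4 read 8.88, 8.80 and 8.82 in vehicle and 9.11, 9.34 and 9.14 at 40 nM. The log2 difference was 0.36 ± 0.083 (adjusted p = 0.0083). The second 40 nM array was the highest, and without it the difference was 0.29 with an adjusted p of 0.0513. None of the other 3 ABCC4 probe sets passed.

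ABCC1 read 10.90, 10.93 and 10.91 in vehicle and 11.13, 11.10 and 11.14 at 40 nM. The groups did not overlap, but the log2 difference of 0.21 ± 0.058 passed only narrowly (adjusted p = 0.027). Leaving out any 1 of the 6 arrays compared gave 0.20 to 0.22 and adjusted p between 0.0588 and 0.0864. Its other probe set, 202805_s_at, went from 7.85, 7.68 and 7.80 to 8.19, 8.23 and 8.23, a larger difference of 0.44 ± 0.079 (adjusted p = 0.0014).

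ABCC2 read 9.04, 8.89 and 8.94 in vehicle and 9.14, 9.21 and 9.11 at 40 nM. Every treated array lay above every vehicle array, by a small margin. The log2 difference was 0.20 with a 95% interval from 0.03 to 0.36 and did not pass after adjustment (adjusted p = 0.125). It passed in 4 of 27 alternative settings, with adjusted p between 0.0152 and 0.0359 there. ABCC5 read 7.47, 7.58 and 7.57 in vehicle and 7.58, 7.62 and 7.59 at 40 nM, overlapping groups with a difference of 0.06 and an interval from -0.17 to 0.28. ABCB1 differed by 0.07 with an interval from -0.15 to 0.28. Over all 18 probe sets, 6 passed as higher and 1 as lower, against 6.49% and 6.02% of all probe sets.

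The response to 40 nM was then compared between the times by testing the difference of the effects, in which a step shared by all arrays of a time drops out. The effect was smaller at 48 h for ABCC2, ABCC1 and ABCC5, and larger for none of the 7, against 6.22% of all genes with a lower and 7.42% with a higher effect. The log2 effect of ABCC2 dropped by 1.19 ± 0.11 (adjusted p = 6.3e-06), from 1.39 to 0.20. That of ABCC1 dropped by 0.67 ± 0.081 (adjusted p = 8.7e-05), and that of ABCC5 by 0.64 ± 0.15 (adjusted p = 0.0105). These drops passed an adjusted p of 0.05 in all 27 alternative settings, and only that of ABCC2 also reached 2-fold. Over all 18 probe sets the effect was smaller for 5 and larger for none, against 4.54% and 5.04% of all probe sets.

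The effect at the ABCC5 set 226363_at dropped as well, by 0.60 ± 0.11 (adjusted p = 0.0018). For ABCC1 the other set, 202805_s_at, differed in the same direction by -0.33 ± 0.11, which did not pass (adjusted p = 0.079). ABCC4 differed by -0.37 ± 0.12 (adjusted p = 0.065) and passed in 9 of 27 alternative settings. For ABCC3 the main set differed by -0.12 with an interval from -0.30 to 0.06, and 230682_x_at by -0.55 ± 0.092 (adjusted p = 0.0011). For ABCG2 the effect at 48 h minus that at 24 h was 0.20 with an interval from -0.25 to 0.65, so a loss of effect as large as that of ABCC2 lies outside its interval. This value ran from 0.026 without the second vehicle array of 24 h through 0.41 without the third (adjusted p = 0.116) to 0.52 with array weights (adjusted p = 0.0561), and it did not pass in any of the 27 alternative settings. ABCB1 differed by 0.11 with an interval from -0.20 to 0.42.

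At 10 nM for 48 h, only ABCC4 passed as higher among the 7 and none as lower, against 12.8% and 10.7% of all genes, a share of members near the background. The median log2 difference of the 7 was -0.04, against 0.00 over all genes. The 10 nM arrays also differed from the vehicle arrays in control probe sets. The 24 probe sets of the poly-A spike controls had a mean of 3.33 to 3.41 on the 10 nM arrays and 5.87 to 5.99 on the vehicle arrays of 48 h, and the 3′ probe set of ACTB exceeded the 5′ set by 2.68 ± 0.025 (SD, n = 3) against 0.351 ± 0.060. GAPDH showed no such gap, with 0.129 against 0.146. On the 40 nM arrays of 48 h the spike mean was 5.74 to 5.89 and the ACTB gap 0.445. All 3 arrays of 10 nM differed in this way, so the dose cannot be told apart from what set these arrays apart. The part of these differences in the 10 nM results was not tested.

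ABCC4 read 9.20, 9.18 and 9.19 at 10 nM, all above the vehicle arrays. The log2 difference from vehicle was 0.36 ± 0.083 (adjusted p = 0.0056). It was as large as at 40 nM, and the difference between the doses was 0.00 with an interval from -0.18 to 0.18. Both doses were compared with the same vehicle arrays. Of the other ABCC4 sets, 243928_s_at was nearest to passing, with 0.32 (adjusted p = 0.126).

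ABCG2 read 6.81, 6.73 and 6.68 at 10 nM, overlapping with vehicle, with a difference of -0.04 and an interval from -0.36 to 0.27. ABCC2 read 8.97, 9.02 and 8.83, also overlapping, with -0.02 and an interval from -0.18 to 0.15. ABCB1 differed by 0.07 with an interval from -0.15 to 0.28. ABCC1 read 10.73, 10.78 and 10.75, below all vehicle arrays. Its log2 difference of -0.16 ± 0.058 did not pass (adjusted p = 0.065), though it did in 7 of 27 alternative settings, and 202805_s_at differed by -0.03.

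The probe sets of ABCC3 and ABCC5 gave different answers at 10 nM. The main ABCC3 set read 11.67, 11.69 and 11.73 and differed by -0.06 (adjusted p = 0.657), but 209641_s_at fell by 0.26 ± 0.061 (adjusted p = 0.0067) and 230682_x_at by 0.31 ± 0.065 (adjusted p = 0.0032). The main ABCC5 set read 7.52, 7.38 and 7.47 and differed by -0.09 (adjusted p = 0.690). The ABCC5 set 226363_at instead went from 6.70, 6.68 and 6.70 in vehicle to 7.15, 7.10 and 7.06, a rise of 0.41 ± 0.075 (adjusted p = 0.00099), and 1558460_at differed by 0.35 (adjusted p = 0.069). Over all 18 probe sets, 2 passed as higher and 2 as lower, against 9.80% and 9.28% of all probe sets.

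Set directly against each other at 48 h, 40 nM exceeded 10 nM for ABCG2, ABCC1 and ABCC3, 3 of the 7 against 10.5% of all genes, and was lower for none, against 12.7%. The log2 difference between the doses was 1.07 ± 0.15 for ABCG2 (adjusted p = 9.9e-05), 0.37 ± 0.058 for ABCC1 (adjusted p = 0.00027) and 0.41 ± 0.061 for ABCC3 (adjusted p = 0.00020). At 48 h the level of ABCG2 and of ABCC3 was highest at 40 nM, and between vehicle and 10 nM the arrays overlapped for ABCG2 and lay just apart, with 10 nM lower, for ABCC3 (adjusted p = 0.657). Over all 18 probe sets, 6 passed as higher at 40 nM than at 10 nM and 2 as lower, against 9.11% and 9.63% of all probe sets, and the 2 were 239217_x_at and 226363_at. With _x_at and _s_at sets left out, the difference of ABCC3 was 0.18 and did not pass (adjusted p = 0.187). For ABCC4 the interval of the difference between the doses is given above, and both lay over vehicle. ABCC2 differed by 0.21 between the doses (adjusted p = 0.070), which passed in 8 of 27 alternative settings. The main set of ABCC5 differed by 0.14 (adjusted p = 0.441), and ABCB1 by 0.00 with an interval from -0.22 to 0.22. The control probe sets listed above differ between these groups as well. Dose cannot be told apart from that difference here, and its part was not tested.

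Between the vehicle groups, 6 of the 7 passed as higher at 48 h than at 24 h, as did 66.3% of all genes, and none as lower, against 3.21%. The median difference over all genes was 0.35. The levels at the 2 times may be on different scales, and time cannot be told apart from a shift between the arrays of each time. Normalizing the values again does not remove a shift particular to a probe set, so the differences only describe the values. The poly-A spike controls had a mean of 6.24 to 6.60 in vehicle at 24 h and 5.87 to 5.99 at 48 h. The ACTB 3′ set exceeded the 5′ set by 0.125 and 0.351 in the same order. The part of these differences was not tested. For ABCG2, ABCC3 and ABCC1 the log2 differences were 1.78 ± 0.15, 1.41 ± 0.061 and 1.07 ± 0.058. They were 1.35, 1.10 and 0.75 with quantile normalization over all arrays, 1.29, 0.91 and 0.57 with array medians subtracted, which takes the median of all probe sets from 0.34 to -0.15, and passed an adjusted p of 0.05 in all 27 alternative settings. The differences of ABCC2 and ABCC4, 0.19 and 0.30, turned to -0.31 and -0.20 with array medians subtracted, and that of ABCB1, 0.24 (adjusted p = 0.0525), turned to -0.26. These 3 genes have no settled direction between the times. ABCC5 had 0.67 ± 0.10 (adjusted p = 6.6e-05) but did not pass with cyclic loess (0.31, adjusted p = 0.0696), quantile normalization (0.30, adjusted p = 0.103) or array medians subtracted (0.18, adjusted p = 0.148).

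The genes around the pumps were read from lists, by main probe set. For every list below, the shares of all genes are the measure of its counts. These were 13.4% higher and 14.9% lower at 24 h. At 48 h they were 9.01% and 8.59% at 40 nM, and 12.8% and 10.7% at 10 nM. No list was tested against them. Of 22 genes of glutathione synthesis and conjugation, which makes substrates of the ABCC pumps, 11 rose and none fell at 24 h. GCLC and GCLM, the subunits of the rate-limiting enzyme of glutathione synthesis, rose by 0.69 ± 0.063 each on the log2 scale (adjusted p = 1.1e-06 for both), and GSTM4, a glutathione transferase, by 0.71 ± 0.17 (adjusted p = 0.0075). At 48 h 3 rose and 2 fell at 40 nM, and 6 rose and 3 fell at 10 nM. At 40 nM GSTO2 fell by 0.45 ± 0.078 (adjusted p = 0.001) and GSR rose by 0.42 ± 0.091 (adjusted p = 0.00565). SLC7A11, which imports cystine for glutathione, fell by 0.44 ± 0.058 at 40 nM (adjusted p = 1.0e-04). At 10 nM GSTM3 fell by 1.19 ± 0.11 (adjusted p = 1.1e-06). MGST2 and GSTA4 rose there by 0.47 ± 0.066 and 0.42 ± 0.083 (adjusted p = 9.85e-05 and 0.00181). The effect of 40 nM dropped from 24 h to 48 h for 5 of the 22, against 6.22% of all genes. GCLC was among the 5, with a drop of 0.54 ± 0.090 (adjusted p = 0.0011).

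Of 15 measured genes of glucuronidation and sulfation, 6 rose and none fell at 24 h, 5 rose and none fell at 40 nM at 48 h, and 3 rose and 1 fell at 10 nM. UGT1A6, a glucuronosyltransferase of planar phenols, rose by 2.65 ± 0.20 at 24 h (adjusted p = 1.3e-07), and its effect dropped by 2.52 ± 0.28 at 48 h (adjusted p = 3.4e-05). The sulfotransferases SULT1A1 and SULT1C2 rose in all 3 comparisons, by 1.59 and 1.68 at 24 h, by 1.20 and 1.08 at 40 nM at 48 h, and by 2.55 and 2.66 at 10 nM. Closely related UGT1A and SULT1A transcripts share sequence, so these probe sets may read more than 1 of them.

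Of 37 other measured ABC genes, 7 rose and 5 fell at 24 h, against 13.4% and 14.9% of all genes. At 40 nM at 48 h 5 rose and none fell, against 9.01% and 8.59%. At 10 nM 6 rose and 2 fell, against 12.8% and 10.7%. At 24 h the largest differences were those of ABCB6, a porphyrin transporter, with 0.93 ± 0.12 (adjusted p = 3.5e-05), ABCA1, the cholesterol exporter, with 0.90 ± 0.088 (adjusted p = 2.1e-06) and ABCA5 with 0.88 ± 0.10 (adjusted p = 1.5e-05). At 10 nM ABCA1 rose by 1.11 ± 0.088 (adjusted p = 3.2e-07). At 40 nM for 48 h ABCA8 rose by 1.45 ± 0.15 and ABCA12 by 1.06 ± 0.14, from 3.58 and 3.41 in vehicle, and TAP1, a subunit of the peptide transporter of antigen presentation, by 0.91 ± 0.082. The median difference of these 37 at 24 h was 0.03, against 0.731 for the 7 efflux pumps. Members and lists were chosen with earlier results known, so this contrast is a description and no test.

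**Figure D4:**
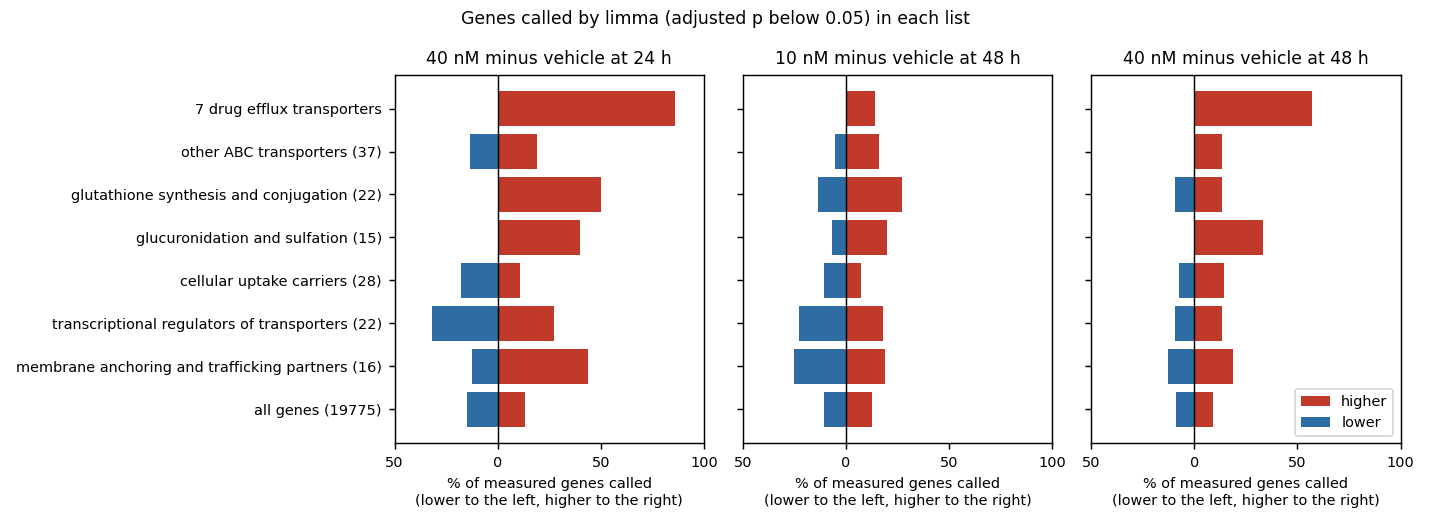
Percent of the measured genes of each list (rows, with their number) that passed as higher (red, to the right) or lower (blue, to the left) at a limma adjusted p below 0.05 in the 3 comparisons with vehicle, beside all 19775 genes. The 7 efflux pumps have 6 higher and none lower at 24 h, where glutathione genes have 11 of 22 higher, and 1 higher at 10 nM.

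Uptake carriers did not move one way, with 3 of 28 higher and 5 lower at 24 h, 4 higher and 2 lower at 40 nM at 48 h, and 2 higher and 3 lower at 10 nM. SLCO2B1, an organic anion importer, rose in all 3, by 1.36 ± 0.15, 2.19 ± 0.15 and 1.35 ± 0.15 in that order (adjusted p = 9.3e-06, 2.0e-07 and 1.3e-05). SLC22A5, the carnitine importer, rose by 0.88 ± 0.089 at 24 h, and SLC22A4 fell by 1.06 ± 0.12.

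Of 22 measured regulators of transporter genes, 6 rose and 7 fell at 24 h. NFE2L2, which encodes NRF2, was chosen for mention after its values were seen. Its log2 difference was 0.49 ± 0.064 at 24 h (adjusted p = 3.7e-05) and 0.13 ± 0.064 at 40 nM at 48 h (adjusted p = 0.244). NFE2L2 does not stand for the other regulators of the list, and a part of NRF2 in the changes of the transporters was not tested. By size, VDR, the vitamin D receptor, fell by 2.12 ± 0.078, MAFF, a small MAF protein that pairs with NRF2, fell by 1.84 ± 0.12, and PPARA rose by 1.05 ± 0.11. At 48 h 3 rose and 2 fell at 40 nM, and 4 rose and 5 fell at 10 nM. MAFF was then higher, by 0.98 ± 0.12 and 0.69 ± 0.12, and AHR, the dioxin receptor, rose by 0.51 ± 0.15 at 40 nM (adjusted p = 0.0386) and fell by 0.83 ± 0.15 at 10 nM (adjusted p = 0.00095). MYC fell at both doses, by 0.50 ± 0.065 and 0.93 ± 0.065.

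Partners in membrane anchoring and trafficking were read from 16 genes, not all of which hold a pump at the membrane. Of the 16, 7 rose and 2 fell at 24 h. At 48 h 3 rose and 2 fell at 40 nM, and 3 rose and 4 fell at 10 nM. NEDD4L rose by 1.08 ± 0.093 at 24 h (adjusted p = 6.0e-07). PDZK1, a scaffold that binds the tails of ABCC2 and ABCC4, rose by 1.94 ± 0.13 at 24 h (adjusted p = 5.4e-08), from a low level of 3.30 in vehicle to 5.24 at 40 nM, and its effect dropped by 1.62 ± 0.19 at 48 h (adjusted p = 4.9e-05). EZR, which links membrane proteins to actin, fell in all 3 comparisons, by 0.47, 0.38 and 0.47. NHERF1 rose at 48 h by 0.53 ± 0.086 at 40 nM and 0.59 ± 0.086 at 10 nM.

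For each of the 6 members that passed in a comparison with vehicle, the 3 genes with the most similar profile were sought over the 15 arrays, after the vehicle mean of the same time was subtracted. The arrays share groups, so the correlations mostly describe group differences, and many genes can reach such values. For ABCC2 they were SNX3, RAB40B and GCLC (Pearson's r of 0.993, 0.991 and 0.990). For ABCC1 they were GBE1, MAGED1 and the iron exporter SLC40A1 (r of 0.994, 0.991 and 0.988), and for ABCC3 the isocitrate dehydrogenase IDH1, PITPNM1 and GLYR1 (r of 0.992, 0.985 and 0.981). For ABCG2 they were TMEM45A, UQCC1 and the citrate carrier SLC25A1 (r of 0.964, 0.964 and 0.958). ABCC4 was closest to ITM2B and RBM47 (r of 0.982 and 0.974) and ABCC5 to SGSM2 and SH3TC1 (r of 0.958 and 0.950), each with 1 further gene known by a locus name.

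RBM47, an RNA-binding protein, shows the profile of ABCC4 on a larger scale, with log2 differences of 1.18 ± 0.065 at 24 h, 0.59 ± 0.065 at 10 nM and 0.65 ± 0.065 at 40 nM at 48 h. SLC40A1 does so for ABCC1, with 2.52 ± 0.10, -0.62 ± 0.10 and 0.87 ± 0.10 in the same order. These are the genes picked for likeness, so their values describe the profiles and test nothing.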

How the data were processed

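Total RNA of 15 A549 samples in 5 groups of 3 was measured on 1-colour arrays. The deposited values are log2 expression values, 1 per probe set and array, which the authors made by RMA (the submitters' processing notes name Affymetrix Expression Console); versions are not given in the sources used here. The table's 54675 probe sets include 62 controls. The platform annotation gave 41091 of the 54613 others 1 symbol, 1801 several and left 11721 unnamed, and 41037 symbols were updated through gene IDs. Group means over all 15 arrays were fitted with limma 3.58.1 in R 4.3.3 (lmFit, eBayes, 10 residual degrees of freedom), with two-sided p-values adjusted by Benjamini-Hochberg over the 54613 probe sets and a threshold of 0.05. "±" after a log2 difference is the standard error. Arrays have no read depth, and their number limits the precision, with a median standard error of 0.107. The fit was tested on simulated data. Members and lists were chosen with earlier results of these data known. All members are named in each comparison with their main probe set, and the genes named of a list come from the up to 3 passing ones with the largest change, with NFE2L2 as the exception stated; locus names are not described. Alternatives were other normalizations, centring, floors and filters, other rules for probe sets, other variance models, the compared groups alone, a replicate block, a 2-fold threshold and each array left out.

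Replicate numbers did not pair the arrays: over 30 same-numbered pairs the correlation of deviations ran from -0.40 to 0.43 and exceeded 0.1 in 9.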

Additional observations from a re-analysis of the deposited data

Results flagged for a closer look

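Of the 7 transporters, 3 main probe sets differed between the times in their response to 40 nM geldanamycin by a test of the difference itself. Among all genes, 6.22% had a lower and 7.42% a higher effect at 48 h by this test. The log2 effect at 48 h minus that at 24 h was -1.19 for ABCC2, -0.67 for ABCC1 and -0.64 for ABCC5 (limma adjusted p = 6.3e-06, 8.7e-05 and 0.0105). The same test passed for 2 further probe sets, with -0.60 for the ABCC5 set 226363_at and -0.55 for the ABCC3 set 230682_x_at, while the main ABCC3 set gave -0.12 (adjusted p = 0.522). All 5 are lower at 48 h. The vehicle arrays of ABCC5 at 24 h were spread over 6.62 to 7.11, wider than its other groups.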

How the results depend on the processing

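Of the log2 differences of members recomputed under the alternatives, 1025 kept their direction and side of the threshold, 28 no longer passed, 36 newly passed and 33 changed sign. The numbers of members called, 6 at 24 h, 1 at 10 nM, 4 at 40 nM for 48 h, 3 between the doses, 6 between the vehicle groups and 3 between the effects, became 1, 0, 1, 1, 3 and 1 with a 2-fold threshold. At 10 nM the count was 2, ABCC4 higher and ABCC1 lower, with cyclic loess, quantile normalization over all arrays or the floor at the 20th percentile. The same 2 passed with the dimmest 40% left out, 1 probe set per gene, an intensity trend with a robust prior, or array weights. Without _x_at and _s_at sets the 2 were ABCC4 and ABCC5, both higher. When a gene's probe sets were averaged the count was 3, with ABCC4 and ABCC5 higher and ABCC3 lower. The count was 2 at 40 nM for 48 h without _x_at and _s_at sets, and 3 between the vehicle groups with cyclic loess. Between the doses it was 5 with the mean of probe sets, 4 higher at 40 nM and 1, ABCC5, lower. With 1 array left out the counts were 6 to 6, 1 to 1, 2 to 4, 3 to 3, 5 to 7 and 3 to 4 in the same order. The 2 came without the second 40 nM array of 48 h, when ABCC1 and ABCC4 no longer passed. Of all 19775 genes, 5610, 4650, 3480, 4596, 13750 and 2697 passed in the main fit, in that order. With a 2-fold threshold 548, 470, 240, 377, 1072 and 365 of all genes passed.

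With the mean of probe sets and without _x_at and _s_at sets, ABCC5 turned to 0.22 and 0.41 at 10 nM (limma adjusted p = 0.0399 and 0.00172). Between the doses it turned to -0.24 and -0.51 (adjusted p = 0.0299 and 0.00029). ABCC5 thus passed as higher at 10 nM, and as lower at 40 nM than at 10 nM, in both settings. Without _x_at and _s_at sets ABCC3 turned to -0.038 at 40 nM for 48 h and did not pass. Both settings read other probe sets, which disagree. Between the vehicle groups ABCC2 turned to -0.14, -0.15 and -0.31 and ABCC4 to -0.030, -0.040 and -0.20 with cyclic loess, quantile normalization and array medians subtracted, and ABCB1 to -0.26 with array medians subtracted. Over all probe sets the median of 0.34 in that comparison became -0.01 with cyclic loess, -0.03 with quantile normalization and -0.15 with array medians subtracted, and ABCC5 did not pass in any of these settings. The other sign changes were of values that passed neither before nor after. They were, with the mean of probe sets, 0.043, -0.019 and -0.037 for ABCB1 at 24 h, at 10 nM and between the effects and -0.013 for ABCC5 at 40 nM for 48 h (-0.098 without _x_at and _s_at sets), 0.022 for ABCC2 at 10 nM and -0.0021 for ABCC4 between the doses with array weights, -0.0039 for ABCB1 and -0.0037 for ABCC4 between the doses with array medians subtracted, and -0.016 and -0.022 for ABCB1 between the vehicle groups with cyclic loess and quantile normalization. With 1 array left out ABCB1 ran from -0.018 to 0.18 at 10 nM, from -0.010 to 0.18 at 40 nM for 48 h and from -0.078 to 0.084 between the doses, ABCC2 from -0.057 to 0.042 at 10 nM, and ABCC4 from -0.071 to 0.044 between the doses. Over all probe sets 34281 passed as higher and 2094 as lower in that comparison, and 10702 and 10263 with cyclic loess, 10108 and 11363 with quantile normalization and 6855 and 18235 with array medians subtracted. Probe sets called rose from 10421 to 15693 at 10 nM and from 5229 to 9549 for the difference of effects with array weights, and fell from 11512 to 7653 at 24 h with the compared groups alone; fewer features were tested with 1 probe set per gene, the mean of probe sets or sets left out.

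With the replicate number as a block the counts were 6, 1, 3, 3, 5 and 3, where ABCC1 at 40 nM for 48 h (0.21, adjusted p = 0.0504) and ABCC2 between the vehicle groups (0.19, adjusted p = 0.060) did not pass; the arrays share only a number. ABCC1 at 40 nM for 48 h also failed with array medians subtracted (adjusted p = 0.13), with the compared groups alone (0.0524) and without _x_at and _s_at sets (0.0596). The signal of ABCB1, at 2.36 to 2.95, limits what can be seen of it.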
